A study of Arabidopsis thaliana with 9 samples.

Results

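The 10 genes described here encode carriers that move sugars across membranes of Arabidopsis thaliana cells, namely STP1, STP4, STP13, STP14, SWEET11, SWEET12, SWEET17, SUC2, ERDL6 and TMT2. They were chosen by locus code and are 10 of the 33473 genes in the deposited table. The study measured shoots of Col-0 plants aged 21 days that had grown at 23 °C in a constant 50 µmol m-2 s-1 of light. Exposure to 1000 µmol m-2 s-1 at 21 °C lasted 0, 20 or 60 s, the 0 s plants being the control, and no group carried a transgene or mutation per the labels. Each exposure had 3 pools of at least 30 plants, 9 samples in all. The table gives 1 value per gene and exposure, in FPKM (fragments scaled by transcript length and by how many fragments were mapped). Errors and tests are therefore not available, and every difference below is one between single deposited values.

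Leaves make sucrose in the mesophyll and send it out through the phloem. In Arabidopsis, SWEET11 and SWEET12 are uniporters that release sucrose from phloem parenchyma cells into the cell wall, and SUC2 is the proton-coupled carrier that takes it up into companion cells. STP proteins are proton symporters of the plasma membrane that bring monosaccharides back from the cell wall into cells. At the vacuole, TMT2 loads sugar, ERDL6 exports glucose and SWEET17 passes fructose, so that the store can be filled and emptied.

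The FPKM values summed to between 817000 and 858218 per exposure over all genes, and the number of reads behind them is unknown. Differences are given as log2 ratios or folds of FPKM + 1, which understates differences of low genes. They are set beside the 13946 genes that averaged 5 FPKM or more, which include all 10 carriers. The middle 95% of those genes had log2 ratios between -0.29 and 0.49 for 20 s over 0 s, between -0.32 and 0.49 for 60 s over 0 s, and between -0.44 and 0.35 for 60 s over 20 s. Leaf markers were abundant, the Rubisco small subunit gene RBCS1A standing at 13889 FPKM at 0 s. All 5 flower markers stayed under 1 FPKM, and 2 of the 7 root markers, EXPA7 and RHD6, were listed at 0 throughout. Of the other root markers, PYK10 (51.1 FPKM at 0 s) and SHR (9.05 FPKM at 0 s) were above 5 FPKM at every exposure, and the rest stayed below.

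All 4 STP genes were higher at 20 s than at 0 s, by 1.43-fold to 1.94-fold, while the phloem carriers and the vacuolar carriers lay close to their 0 s values. At 60 s STP1 and STP14 were still higher, STP13 lay between, and STP4 was back at its 0 s level. SWEET11 and SWEET12 were slightly lower at 20 s and slightly higher at 60 s, in step with each other. Over the 10 genes, 6 were higher and 4 lower at 20 s, beside 48.5% of all 13946 genes higher and 51.5% lower. The median log2 ratio was 0.18 against -0.0045 for all 13946 genes. At 60 s against 0 s all 10 were higher, beside 54.6% of all genes, with a median of 0.16 against 0.015. STP4 and TMT2, the 2 nearest to 0, depend on the scaling there: 9 were higher after quantile normalization (STP4 lower) and 8 after scaling to the sum of genes above 0 (both lower). Between 20 s and 60 s, 5 were higher and 5 lower, beside 57.6% of all genes higher and 42.4% lower, with a median of 0.035 against 0.023. Both comparisons with the control use the same 0 s values, so they are not independent of each other.

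**Figure D1:**
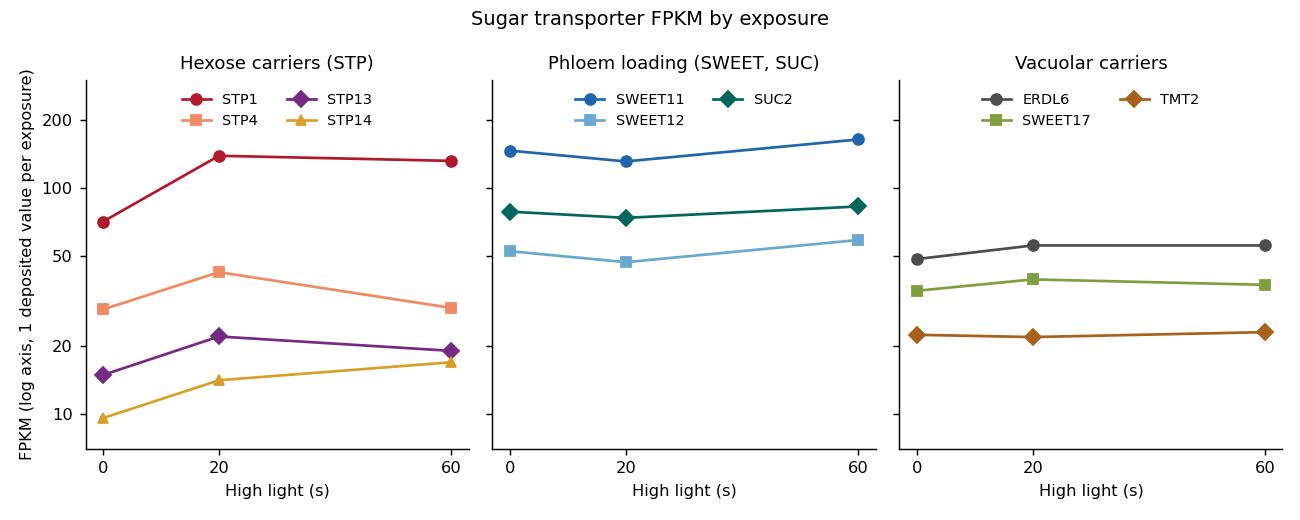
FPKM of the 10 sugar transporters (log vertical axis) at 0, 20 and 60 s of high light (horizontal axis), 1 deposited value per point and no error available, in panels of STP genes, phloem loading genes and vacuolar carriers. All 4 STP genes are higher at 20 s than at 0 s, STP1 at 138 against 70.7 FPKM, while the lines of the other 6 genes are nearly level.

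At least 1.5-fold higher at 20 s was 1 of the 10 genes, STP1, where 1.79% of all 13946 genes were as much higher. At 60 s against 0 s there were 2, STP1 and STP14, beside 1.69% of all genes. Of the 10, 0 were 1.5-fold lower at either exposure, beside 0.502% at 20 s and 0.423% at 60 s. Between 20 s and 60 s, 0 were 1.5-fold apart, beside 0.545% of genes higher and 1.24% lower. At 2-fold the count was 0 of 10 in all 3 comparisons, and the shares of all genes were 0.559% higher and 0.143% lower at 20 s, 0.538% and 0.186% at 60 s, and 0.143% and 0.237% between the 2 exposures. At 20 s 4 of the 10, all of them STP genes, lay above the middle 95% of genes, where 2.5% of genes lie by definition. STP14, the closest of them to the edge, was inside it with a pseudocount of 5 FPKM and with a minimum mean of 1 FPKM, which leaves 3 of 10. At 60 s against 0 s, STP1 and STP14 did (2 of 10, beside 2.5%), and at 60 s against 20 s, STP4 alone lay below that range (1 of 10, beside 2.5%). The middle 95% was not among the planned limits. At 20 s STP4, STP13 and STP14 passed its upper edge (log2 ratio 0.49) but not the planned 1.5-fold limit (0.58). The genes had been chosen with earlier results of these data known, so these counts describe them and are no test.

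**Figure D2:**
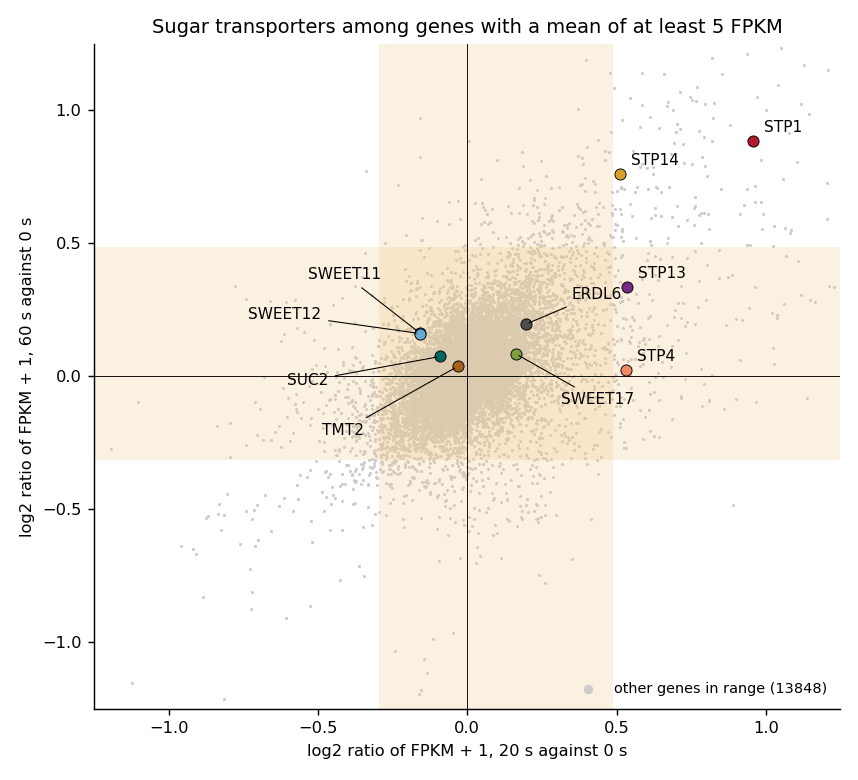
Log2 ratios of FPKM + 1 at 20 s against 0 s (horizontal axis) and at 60 s against 0 s (vertical axis) for genes that averaged 5 FPKM or more (grey; 88 of 13946 lie outside the axes) and the 10 sugar transporters (coloured, named), with bands for the middle 95% of genes on each axis. The axes share the 0 s values, which draws the cloud along the diagonal; STP1 and STP14 lie beyond both bands, STP4 and STP13 beyond the 20 s band alone, and the other 6 inside both.

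STP1 (AT1G11260), the main hexose and proton symporter of this family in Arabidopsis, had 70.7 FPKM at 0 s, 138 FPKM at 20 s and 131 FPKM at 60 s. The value at 0 s stood apart from the other two. The difference was 1.94-fold at 20 s (log2 ratio 0.96) and 1.84-fold at 60 s (0.88), and 90 genes at 20 s and 98 at 60 s were at least as much higher, STP1 included. On the coordinates of the table (TAIR9, per the submitters' processing notes) STP1 lies on chromosome 1 from 3777328 to 3780337. Its listed locus overlaps no other, and the same holds for the other 9 genes. In the reference annotation of TAIR10.1 the STP1 transcript runs into AT1G11270 on the other strand, and 11.3% of its 50-base words also occur in transcripts of other genes. AT1G11270 itself was listed at 1.86, 2.05 and 1.85 FPKM, far below STP1 at every exposure.

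STP4 (AT3G19930, chromosome 3 from 6934773 to 6937120), a monosaccharide symporter known to respond to wounding and pathogens, had 28.9 FPKM at 0 s, 42.3 FPKM at 20 s and 29.4 FPKM at 60 s. Only the 20 s value was high. It was 1.45-fold higher at 20 s (log2 ratio 0.53), 0.02 above 0 s on the log2 scale at 60 s, and 1.42-fold lower at 60 s than at 20 s (log2 ratio -0.51). In that last comparison 258 of the 13946 genes were at least as much lower, STP4 included.

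STP13 (AT5G26340, chromosome 5 from 9243511 to 9247066), a high-affinity hexose symporter known from defence against bacteria, had 14.8 FPKM at 0 s, 22.0 FPKM at 20 s and 19.0 FPKM at 60 s. Its log2 ratios to 0 s were 0.54 at 20 s (1.45-fold) and 0.34 at 60 s (1.26-fold), and the value at 60 s lay between the other two. STP14 (AT1G77210, chromosome 1 from 29008939 to 29011090), which transports galactose when expressed in yeast, had 9.57 FPKM at 0 s, 14.1 FPKM at 20 s and 16.9 FPKM at 60 s. It was the only STP gene of the 4 whose 60 s value was above its 20 s value. Its log2 ratios were 0.51 at 20 s (1.43-fold) and 0.76 at 60 s (1.69-fold), and its 60 s value was above the 20 s value by 0.25. STP13 and STP14 share no 50-base word with another transcript, nor does STP4.

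Together the 4 STP genes summed to 124 FPKM at 0 s, 217 FPKM at 20 s and 197 FPKM at 60 s. STP1 took 46.0%, 55.6% and 57.5% of the summed FPKM of the 14 STP family genes at the 3 exposures. The remaining 10 genes of the family were mostly low. Only STP7 (11.6, 13.3 and 13.4 FPKM) and AT5G61520 (15.3, 15.5 and 15.3 FPKM) reached a mean of 5 FPKM, with log2 ratios at 20 s of 0.19 and 0.02. The coding sequences of the 4 STP genes were 56.8% to 62.7% identical in pairs, and the longest run that 2 of them shared was 21 bases, in STP1 and STP4. Of the 7 root markers 2 averaged 5 FPKM or more, PYK10 being higher and SHR lower than at 0 s at both exposures. All 7 summed to 63.8 FPKM at 0 s, 77.9 FPKM at 20 s and 78.3 FPKM at 60 s, most of it from the beta-glucosidase gene PYK10 (51.1, 66.2 and 66.7 FPKM). The root regulator SHR was at 9.05, 7.92 and 8.40 FPKM, 2 defining markers of root hairs, EXPA7 and RHD6, were listed at 0, and the part of root tissue in the STP differences was not tested.

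**Figure D3:**
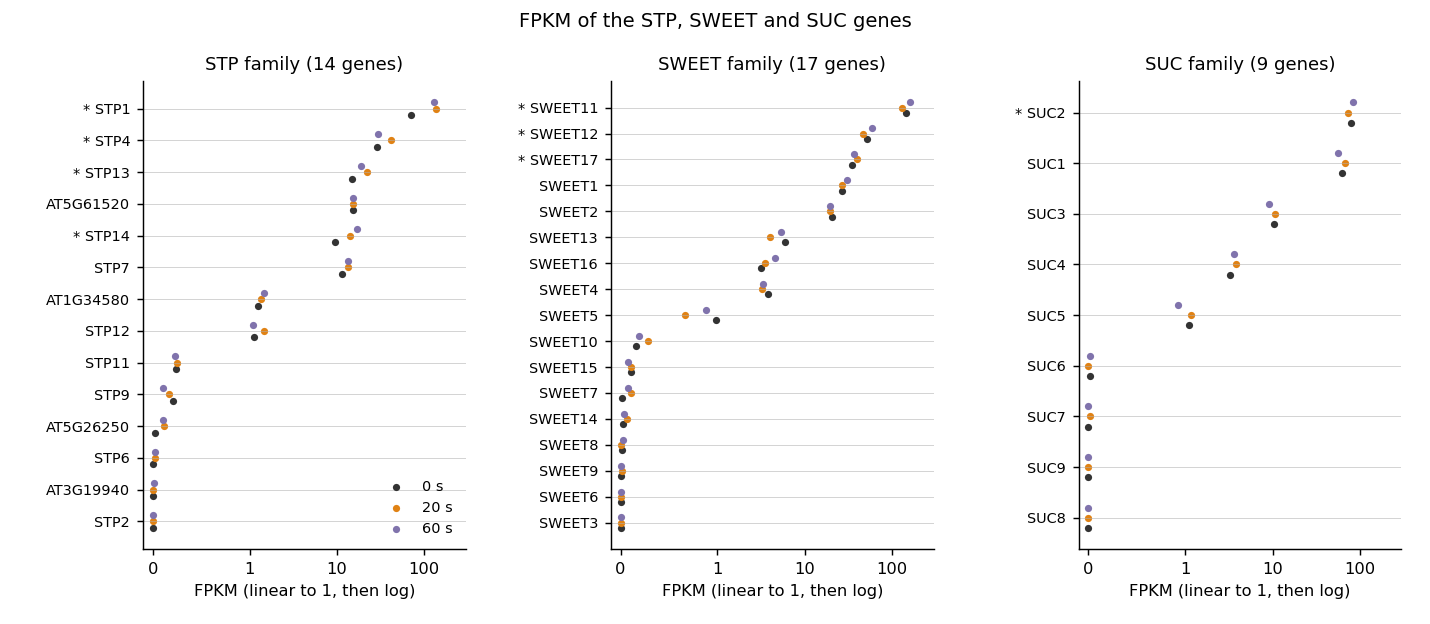
FPKM (horizontal axis, linear to 1 and logarithmic above) of the genes listed for the STP, SWEET and SUC families at 0, 20 and 60 s, 1 deposited value per point, a star marking the genes described here. A few genes carry each family: STP1, SWEET11 and SUC2 lead, while 6 of 14 STP, 9 of 17 SWEET and 4 of 9 SUC genes were under 1 FPKM at 0 s.

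The promoters of STP1 and STP4 are shown because these genes had the highest ratio and the clearest return to the 0 s level among the 4, and those of SWEET11 and SWEET12 because the pair had matching ratios. Each is the 250 bases before the gene start in RefSeq's TAIR10.1 annotation, read 5′ to 3′ on the gene's strand. Capitals mark matches, on either strand, to the G-box CACGTG, the W-box core TTGAC, the sugar response core TATCCA or the core CGCGTT of the rapid stress response element. No match overlapped another. The deposited gene starts lie 92 (STP1), 205 (STP4), 77 (SWEET11) and 70 bases (SWEET12) downstream of the reference starts.
STP1 promoter, chr1:3776986-3777235, plus strand: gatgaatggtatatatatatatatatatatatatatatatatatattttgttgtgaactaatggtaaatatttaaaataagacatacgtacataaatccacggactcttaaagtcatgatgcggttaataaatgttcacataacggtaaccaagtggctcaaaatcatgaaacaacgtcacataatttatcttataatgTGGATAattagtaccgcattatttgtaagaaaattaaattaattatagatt
STP4 promoter, chr3:6934318-6934567, plus strand: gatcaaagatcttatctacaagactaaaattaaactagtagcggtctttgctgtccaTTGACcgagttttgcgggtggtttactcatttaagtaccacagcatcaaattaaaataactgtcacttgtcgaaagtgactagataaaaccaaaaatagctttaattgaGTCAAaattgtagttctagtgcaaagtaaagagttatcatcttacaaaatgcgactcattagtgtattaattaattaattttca
SWEET11 promoter, chr3:18054833-18055082, minus strand: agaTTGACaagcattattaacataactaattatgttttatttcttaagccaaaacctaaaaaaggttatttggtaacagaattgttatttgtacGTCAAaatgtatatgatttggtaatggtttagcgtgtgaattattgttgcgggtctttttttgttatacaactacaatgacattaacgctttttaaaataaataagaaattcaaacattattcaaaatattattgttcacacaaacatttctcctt
SWEET12 promoter, chr5:7973996-7974245, minus strand: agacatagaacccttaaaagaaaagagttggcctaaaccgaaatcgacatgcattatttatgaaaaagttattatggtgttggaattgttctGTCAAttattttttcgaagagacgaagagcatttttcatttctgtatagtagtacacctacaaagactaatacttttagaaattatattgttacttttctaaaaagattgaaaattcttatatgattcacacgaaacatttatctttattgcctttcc

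The sugar response core occurred in 3 of the 10 promoters (STP1, SWEET17 and ERDL6) and in 13.6% of 27443 protein-coding promoters. In STP1 it lies 51 to 46 bases before the start. The W-box core, known as the binding sequence of WRKY factors, occurred in 3 of the 10 (STP4, SWEET11 and SWEET12) and in 44.9% of all. STP4 and SWEET11 hold 2 matches each. The G-box occurred in SUC2 alone, beside 6.49% of all, and the rapid stress core in 0 of the 10, beside 2.59%. STP13, STP14 and TMT2 held no match in this window, so no motif of the 4 was shared by the 4 STP genes within it. The deposited starts of these 3 genes lie 474 (STP13), 1006 (STP14) and 270 bases (TMT2) downstream of the reference starts. Their windows end that far before the deposited starts. A match is a run of letters and no evidence of binding.

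SWEET11 (AT3G48740, chromosome 3 from 18052466 to 18054755) had the highest level of the 10 genes at 0 s and 60 s, with 146 FPKM at 0 s, 131 FPKM at 20 s and 163 FPKM at 60 s. SWEET12 (AT5G23660, chromosome 5 from 7971651 to 7973925), which acts in the same step, had 52.4 FPKM at 0 s, 46.8 FPKM at 20 s and 58.7 FPKM at 60 s. Both genes were lowest at 20 s and highest at 60 s. Their log2 ratios were the same to 2 decimals, namely -0.16 for 20 s over 0 s, 0.16 for 60 s over 0 s and 0.32 for 60 s over 20 s. All 6 values lay inside the middle 95% of genes. The last came closest to its edge, with 417 of 13946 genes at least as much higher as SWEET11, and both genes lay above it with a pseudocount of 5 FPKM or with no minimum level. The ratio of SWEET11 to SWEET12 in FPKM was 2.78 at 0 s, 2.79 at 20 s and 2.78 at 60 s.

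Close copies can share reads, and the estimator divides such reads between them. The coding sequences of SWEET11 and SWEET12 were 80.4% identical, with a longest shared run of 29 bases, and 0 of their 50-base words occurred in another gene's transcript. That run lies in exon 5, where the pair is 90.8% identical. The exon is shown from the reference genome (TAIR10.1), 5′ to 3′ on the minus strand, with the 11 bases that differ between the genes in capitals; the shared run covers bases 73 to 101 of its 120.
SWEET11 exon 5, chr3:18053648-18053767: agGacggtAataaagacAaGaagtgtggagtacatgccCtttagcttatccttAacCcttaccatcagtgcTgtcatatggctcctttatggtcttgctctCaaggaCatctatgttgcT
SWEET12 exon 5, chr5:7972741-7972860: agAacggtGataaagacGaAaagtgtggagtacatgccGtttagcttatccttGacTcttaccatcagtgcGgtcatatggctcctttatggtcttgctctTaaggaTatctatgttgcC

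SUC2 (AT1G22710, chromosome 1 from 8030641 to 8033117) had 78.3 FPKM at 0 s, 73.5 FPKM at 20 s and 82.5 FPKM at 60 s. The 3 values were close, lowest at 20 s like those of the SWEET pair, with log2 ratios of -0.09 for 20 s over 0 s, 0.08 for 60 s over 0 s and 0.17 for 60 s over 20 s. SUC1 had 62.6, 67.7 and 55.8 FPKM and SUC3 10.3, 10.6 and 9.07 FPKM. These 2 proton-coupled sucrose carriers thus ran the other way, highest at 20 s and lowest at 60 s. The SUC family sum was 156 FPKM at 0 s, 157 FPKM at 20 s and 152 FPKM at 60 s, of which SUC2 made up 50.3%, 46.8% and 54.3%. Of the 14 other SWEET genes 3 reached a mean of 5 FPKM. SWEET13, a sucrose carrier related to SWEET11 and SWEET12, was at 5.98, 3.99 and 5.34 FPKM, with a log2 ratio of -0.48 at 20 s, so all 3 of these relatives were lowest at 20 s. SWEET1 (27.1, 26.9 and 30.3 FPKM) and the vacuolar SWEET2 (20.5, 19.3 and 19.4 FPKM) differed less but were also lowest at 20 s. A low 20 s value was thus not particular to the 3 relatives, although SWEET17 was highest at 20 s.

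The 8 phloem markers summed to 208 FPKM at 0 s, 212 FPKM at 20 s and 231 FPKM at 60 s. Of the 6 that averaged 5 FPKM or more, 5 had a 20 s value above that at 0 s, beside 48.5% of all genes. The exception was AKT2, a potassium channel of the phloem, at 14.9, 12.1 and 16.5 FPKM, lowest at 20 s as SWEET11, SWEET12 and SUC2 were. The 5 mesophyll and leaf markers summed to 27996, 27196 and 28419 FPKM, also lowest at 20 s and highest at 60 s. Of these RCA, CAB3 and GUN4 had that order, while RBCS1A was lower at each longer exposure (13889, 13342 and 13027 FPKM) and RBCS3B higher (5039, 5284 and 5402 FPKM). Of the 7 guard cell and epidermis markers 6 were lower at 20 s than at 0 s, beside 51.5% of all genes. All 7 of these markers had a 60 s value above that at 20 s (median log2 ratio 0.10), beside 57.6% of all genes (median 0.023). Their sums were 492, 491 and 514 FPKM. The 6 xylem markers summed to 69.1, 71.7 and 70.8 FPKM. The part of cell makeup in the differences of the SWEET genes and SUC2 was not tested, and in whole shoots fewer cells of a type cannot be told apart from less RNA per cell.

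ERDL6 (AT1G75220, chromosome 1 from 28229157 to 28232831) had 48.3 FPKM at 0 s and 55.5 FPKM at both 20 s and 60 s, 1.15-fold higher than at 0 s. With another gene it shared 0.343% of its 50-base words. SWEET17 (AT4G15920, chromosome 4 from 9030517 to 9033395) had 35.0, 39.3 and 37.2 FPKM, with log2 ratios of 0.16 and 0.08 to 0 s. TMT2 (AT4G35300, chromosome 4 from 16796256 to 16799553) had 22.3, 21.8 and 23.0 FPKM, with log2 ratios of -0.03 and 0.04. Of its 50-base words 5.39% occur in AT4G35295 on the other strand, which was listed at 0.088, 0 and 0 FPKM. All 3 vacuolar carriers lay inside the middle 95% of genes in every comparison. TMT1, also of the TMT family, had 23.6, 27.1 and 26.2 FPKM and a log2 ratio of 0.19 at 20 s.

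Ordered by FPKM at 0 s, a scale that corrects for length, the 10 genes ran from SWEET11 through SUC2, STP1, SWEET12, ERDL6, SWEET17, STP4, TMT2 and STP13 to STP14, or from 146 down to 9.57 FPKM. At 20 s STP1 (138 FPKM) stood first, ahead of SWEET11 (131 FPKM), and at 60 s SWEET11 (163 FPKM) led again. Since no spread is available, neighbours in this order cannot be separated.

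Among 9 other ERD6-like and vacuolar carriers, 8 reached a mean of 5 FPKM, 5 of them higher and 3 lower at 20 s (median 0.09), none by 1.5-fold. ERD6, a sugar carrier named for its early response to dehydration, had 89.6, 121 and 84.9 FPKM. Like STP4 it was high at 20 s alone, with a log2 ratio of 0.43 for 20 s over 0 s and of -0.51 for 60 s over 20 s. ESL1, its neighbour on the chromosome, had 10.6, 12.9 and 13.3 FPKM. SFP1 (34.9, 39.6 and 46.7 FPKM) and SFP2 (10.9, 10.1 and 13.9 FPKM) were highest at 60 s, with log2 ratios to 0 s of 0.41 and 0.32. AT1G19450 (52.2, 45.9 and 49.7 FPKM) and AT5G17010 (17.6, 16.7 and 16.9 FPKM) were lower at both exposures.

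Polyol and inositol carriers were higher in 4 of 4 at both exposures, beside 48.5% of all genes at 20 s and 54.6% at 60 s. The medians of these carriers were 0.26 at 20 s and 0.36 at 60 s. PLT6 (AT4G36670), a polyol and monosaccharide carrier, had 4.75, 11.7 and 10.4 FPKM and the largest ratio among the carriers listed, 2.21-fold at 20 s and 1.98-fold at 60 s. The inositol exporter of the vacuole, INT1, had 16.2, 20.7 and 24.5 FPKM, with log2 ratios of 0.33 and 0.57. PLT5 (36.9, 42.2 and 38.9 FPKM) and INT4 (6.82, 7.25 and 7.69 FPKM) differed by at most 0.19. The 5th gene of this list, INT2, was under 5 FPKM.

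**Figure D4:**
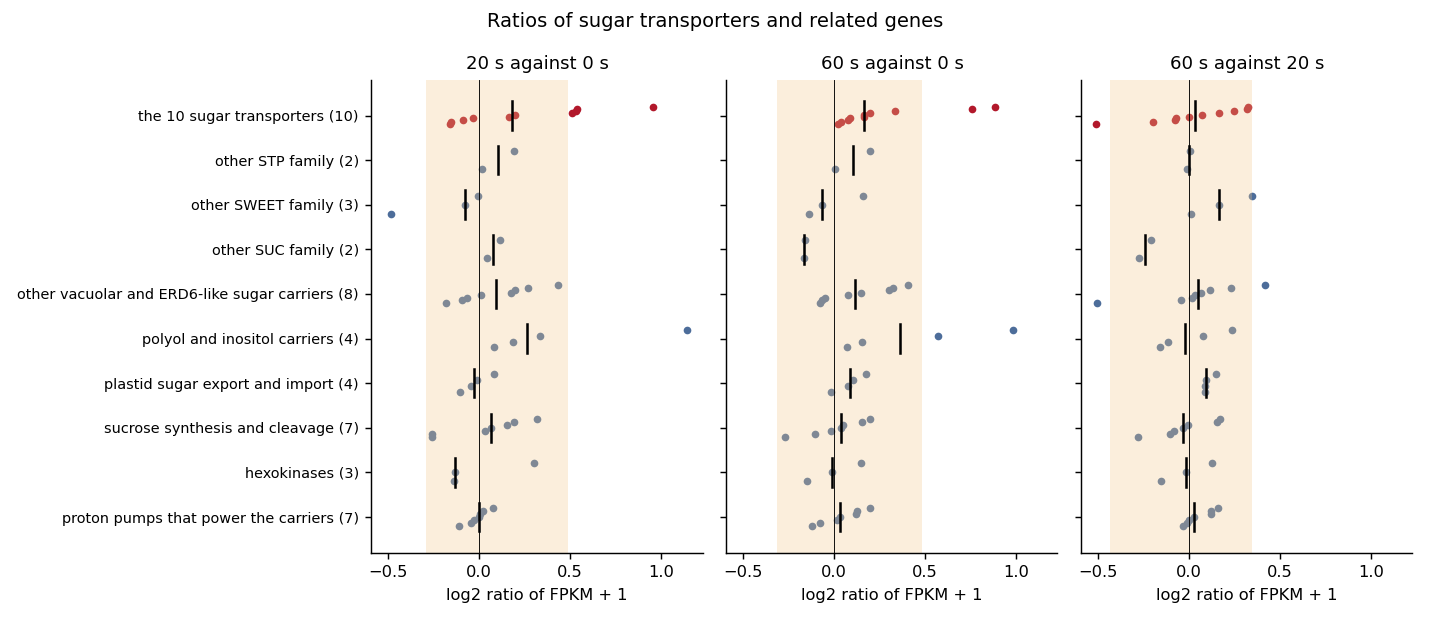
Log2 ratios of FPKM + 1 (horizontal axis) for the genes of each list that averaged 5 FPKM or more, 1 point per gene with the list's median as a black bar, in the 3 comparisons; the number of genes is in brackets and the band is the middle 95% of 13946 genes. The 10 sugar transporters (red) spread from -0.16 to 0.96 at 20 s, and beyond the band on the high side lie the 4 STP genes and PLT6.

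Sucrose-making and sucrose-cleaving enzymes showed smaller ratios than STP1. Of 18 listed, 7 reached 5 FPKM, 5 higher and 2 lower at 20 s (median 0.06) and 4 higher and 3 lower at 60 s (median 0.04), none by 1.5-fold. The cell wall invertase CWINV1, which frees the hexoses that STP carriers take up, had 31.8, 39.9 and 32.7 FPKM, high at 20 s alone (log2 ratio 0.32). CWINV3 (8.61, 7.02 and 6.98 FPKM) and the sucrose phosphate synthase gene SPS4F (64.5, 53.7 and 59.8 FPKM) were the lowest at 20 s, both at -0.26.

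By distance in the pair of log2 ratios to 0 s, among 13691 protein-coding genes, the nearest to STP1 were LSU1 (5.07, 10.6 and 10.2 FPKM), BXL2 (7.32, 15.5 and 13.6 FPKM) and AT5G21940 (65.0, 121 and 126 FPKM). LSU1 responds to low sulfur and BXL2 is a beta-xylosidase. The nearest to STP14 were AT4G34790 of the SAUR family (7.58, 11.3 and 13.0 FPKM), UGE1, an enzyme that interconverts UDP-glucose and UDP-galactose (31.0, 44.7 and 51.3 FPKM), and UPM1 of siroheme synthesis (44.3, 64.2 and 72.9 FPKM). The likeness rests on 3 values per gene.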

How the data were processed

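The submitters' processing notes name TopHat, Bowtie and Cufflinks and the TAIR9 build; versions, strand handling, library selection and the way 3 pools gave 1 value were not stated there. The authors deposited FPKM values, 1 per gene and exposure, in 3 columns that were matched to the exposures by name, with 0 value columns unmapped. Because single pools have no column, limma, planned for values per pool, was not run. The log2 ratio of 2 exposures after adding 1 FPKM to each was computed for all genes, and counted at 1.5-fold and 2-fold among those averaging 5 FPKM or more. The ratio step was checked on simulated data with 3-fold changes. These are larger than any ratio of the genes described here, so the check does not cover differences of their size.

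The members and the 9 pathway and 6 marker lists were chosen with earlier results of these data known. The members, the 2 highest and 2 lowest genes of each list per comparison and the 3 nearest genes to the 2 members with the largest ratios were eligible to be named; the text gives most of them, and any other list gene was chosen after its values were seen. All 127 list codes matched RefSeq's TAIR10.1 annotation. Promoters, exons, coding identity (global alignment) and shared 50-base words came from that genome and annotation, and coordinates of genes from the table, shifted by 1 at the start. Alternatives were other pseudocounts, minimum levels, scalings and gene sets. Python 3.11.15, pandas 2.3.3, numpy 2.4.6 and matplotlib 3.10.9 were used.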

Additional observations from a re-analysis of the deposited data

How the results depend on the processing

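No paired analysis was possible because the table has 1 value per exposure, so the replicate numbers of the labels have no values, and for the same reason no replicate could be left out. With a 2-fold limit the count of the 10 genes was 0 in place of 1 at 20 s, 0 in place of 2 at 60 s, and 0 again between the exposures. Under pseudocounts of 0.1 and 5 FPKM, minimum means of 1, 10 or no FPKM, median centring, quantile normalization, scaling to the sum of genes above 0 and the restricted set of 11522 genes, the 1.5-fold counts stayed 1, 2 and 0. The restricted set holds protein-coding genes of at least 300 bp that overlap no other listed gene and are above 0 FPKM throughout. The median log2 ratio at 60 s against 20 s, 0.035 as reported, was 0.012 after median centring and -0.0085 after scaling to the sum of genes above 0, so its sign depends on the scaling. Above the middle 95% of genes in that comparison lay 2 of the 10 genes, SWEET11 and SWEET12, in place of 0 with a pseudocount of 5 FPKM and also 2, the same genes, with no minimum level. At 20 s STP14 was no longer above the middle 95% with a pseudocount of 5 FPKM and with a minimum mean of 1 FPKM, and the count was 3 in place of 4. The middle 95% limit itself was not planned, these alternatives for it were chosen after seeing the data, and the cause was not tested. Of 270 ratios of single genes under alternatives, 253 kept their sign and moved by at most 1.5 times, 17 moved further or changed sign, and 0 that had passed 1.5-fold changed direction. The minimum means and the restricted set change only the genes used for comparison. All 10 genes passed them, so their ratios and 1.5-fold counts could not change there, and these settings are no check of them. With 50 bases after the start added, the sugar response core was in 4 of the 10 promoters in place of 3, STP4 being the addition, and in 16.1% of all in place of 13.6%. The depth is unknown, so its limit on low genes cannot be given.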

Other observations

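Sugar carriers of the plastid, the kinases that phosphorylate hexoses and the pumps that drive proton-coupled uptake were listed beside the 10 genes. Those that averaged 5 FPKM or more differed little. The plastid carrier GPT2, below that level, had 0.57, 1.22 and 0.62 FPKM. Its log2 ratios were 0.50 for 20 s over 0 s and -0.46 for 60 s over 20 s. The triose phosphate translocator TPT, which exports the product of photosynthesis from the chloroplast, had 649 FPKM at 0 s, 629 FPKM at 20 s and 697 FPKM at 60 s. The maltose exporter MEX1 had 18.6, 17.2 and 18.4 FPKM, and the plastid glucose carrier PGLCT 105, 111 and 119 FPKM. All 4 tested plastid carriers were higher at 60 s than at 20 s, by 0.09 to 0.15 on the log2 scale. In that comparison 57.6% of all genes were higher, with a median of 0.023. The hexokinase and glucose sensor HXK1 had 39.6, 36.0 and 35.5 FPKM, whereas the hexokinase-like gene HKL1 had 13.1, 16.3 and 14.6 FPKM.

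Plasma membrane proton pumps, which power the STP and SUC carriers, had log2 ratios between -0.11 and 0.08 at 20 s, together with the vacuolar pumps of the same list. AHA1, the most abundant plasma membrane pump of the list, had 229, 241 and 262 FPKM. AHA3, the pump known from phloem companion cells, had 65.3, 63.9 and 71.4 FPKM, lowest at 20 s and highest at 60 s as SUC2 was. AHA11 (44.3, 44.2 and 48.2 FPKM) had the same order, so it was not particular to AHA3, while the remaining pumps had other orders. None of the 7 pumps was 1.5-fold apart in any comparison.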
